A study of Homo sapiens with 13 samples.

Results

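The set taken for respiratory complex I holds 45 genes, 7 on the mitochondrial chromosome and 38 in the nucleus. The count table of each line lists 62703 genes. A gene was taken where its identifier maps to MT-ND1 to MT-ND6 or MT-ND4L, or to a protein-coding gene named NDUFA, NDUFB, NDUFC, NDUFS or NDUFV with a number, or to NDUFAB1. Assembly factors named NDUFAF stayed out. All 45 passed the filter on low counts in both lines. The 38 nuclear genes comprised 7 core subunits, 7 accessory subunits of the NADH-oxidising N module, 1 of the quinone-reducing Q module, 10 listed with the proximal and 12 with the distal membrane arm, and NDUFA4, which keeps its NDUF name but is now known as a subunit of complex IV.

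The study read poly-A RNA in 13 libraries, from SKOV3 and OVCAR3, which are human ovarian carcinoma lines. SKOV3, a line known for an amplified ERBB2 gene, carried RSF1delUAB, RSF1 or a control vector, in 3 libraries each. RSF1 is a histone chaperone of the RSF remodelling complex that binds ubiquitinated histone H2A through its UAB region, which RSF1delUAB lacks. OVCAR3, a serous carcinoma line, expressed a UAB peptide or a scrambled control, in 2 libraries each, and both of its groups had received 2000 ng/mL doxycycline for 6 days. Doxycycline is known to inhibit protein synthesis on mitochondrial ribosomes, so no OVCAR3 group here is free of such an agent, while the labels give SKOV3 no treatment. The labels say nothing of clones, of the promoter or of separate cultures, so a p-value here measures how far these libraries spread, which may be technical.

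Complex I takes electrons from NADH, passes them along iron-sulphur clusters to ubiquinone and pumps protons across the inner mitochondrial membrane. The mitochondrial genome encodes the membrane core with the proton channels, and the nucleus encodes the core of the peripheral arm and all accessory subunits, so both genomes must be transcribed for the enzyme to form. Mitochondrial transcripts are cut from long precursors of each strand, and their poly-A tails complete several stop codons.

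The libraries were captured on poly-T beads, so the 3′ ends of the mitochondrial reading frames are shown first, since the tail is part of how these transcripts were read. Each line gives the last 30 bases of a reading frame from the GENCODE 29 transcripts (GRCh38), 5′ to 3′, with the bases of the stop in capitals.
MT-ND1 (chrMT:4233-4262, + strand): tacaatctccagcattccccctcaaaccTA
MT-ND2 (chrMT:5482-5511, + strand): ctatctccccttttatactaataatcttaT
MT-ND3 (chrMT:10375-10404, + strand): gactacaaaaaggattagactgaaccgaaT
MT-ND4L (chrMT:10737-10766, + strand): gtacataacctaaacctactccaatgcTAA
MT-ND4 (chrMT:12108-12137, + strand): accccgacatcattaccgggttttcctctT
MT-ND5 (chrMT:14119-14148, + strand): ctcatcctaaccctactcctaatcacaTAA
MT-ND6 (chrMT:14149-14178, - strand): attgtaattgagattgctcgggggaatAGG
The reading frame of MT-ND1 ended on TA, and those of MT-ND2, MT-ND3 and MT-ND4 on a single T, so that only the tail completes their stop. MT-ND4L and MT-ND5 ended on TAA. MT-ND6 is the one member on the - strand and ends on AGG beside the last base of MT-ND5; in human cells its transcript is known for a short or missing tail, which limits what poly-T capture reads of it.

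MT-ND4L and MT-ND4 lie on 1 transcript and share 7 bases, marked here in capitals at the end of one frame and the start of the next.
MT-ND4L (chrMT:10737-10766, + strand): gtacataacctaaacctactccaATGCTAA
MT-ND4 (chrMT:10760-10789, + strand): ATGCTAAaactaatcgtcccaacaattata
The shared bases were 2.36% of MT-ND4L and 0.508% of MT-ND4, and no other gene overlapped a mitochondrial member. The 217 nuclear pseudogene copies named MTND held few reads. For the mitochondrial member with the most reads in its copies, MT-ND2, those of its 34 copies came to 0.397% of its own in RSF1delUAB libraries, 0.329% in RSF1 and 0.331% in control.

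Total counts ran from 15194678 to 18748009 in SKOV3 and from 18160558 to 24026993 in OVCAR3. RSF1 itself stood at 459, 496 and 509 CPM (the usual scaling of counts to library size, here adjusted by TMM) in RSF1delUAB libraries, 631, 775 and 749.8 CPM in RSF1 and 42.2, 47.5 and 42.2 CPM in control, and the 2 construct groups were clear of control. RSF1delUAB stood 0.56 ± 0.07 log2 units below RSF1 (adjusted p = 5.07e-06). In OVCAR3 it was 787 and 586 CPM with the UAB peptide and 564 and 707 CPM with the scramble, which overlap. Of the epithelial and ovarian markers listed, PAX8 was at 274 to 515 CPM in SKOV3 and 607 to 716 CPM in OVCAR3. The lowest listed keratin in SKOV3, KRT18, was at 120 to 149 CPM there. Others were low in SKOV3, with MUC16 at 0 to 0.189 CPM, WT1 at 0.133 to 3.58 CPM and MSLN at 3.47 to 12.9 CPM. EPCAM was at 10.5 to 21.9 CPM in SKOV3 and 301 to 339 CPM in OVCAR3. The 5 immune markers summed to at most 1.82 CPM in SKOV3 and 10.6 CPM in OVCAR3, with 1 of the 5 at 0 in each group. Replicates differed beyond counting noise in every group; RSF1 replicate 1 stood apart, with a chi-square over its degrees of freedom of 12.7 and 14.4 against the other RSF1 libraries where other SKOV3 pairs had 2.20 to 3.63. In that library genes with a principal transcript under 1 kb were a median 0.30 log2 units higher than in the other RSF1 libraries and those over 4 kb 0.14 lower. The OVCAR3 pairs were also far apart, at 11.5 for the UAB peptide and 13.4 for the scramble.

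Mitochondrial members were by far the more abundant set, and their share was higher with both RSF1 constructs. The 7 took 1.07% to 1.26% of all counts in RSF1delUAB libraries, 1.11% to 1.19% in RSF1 and 0.928% to 0.969% in control. The 38 nuclear members together took 0.206% to 0.215% in RSF1delUAB libraries, 0.193% to 0.249% in RSF1 and 0.193% to 0.205% in control. In OVCAR3 the 7 took 1.94% and 2.04% of counts with the UAB peptide and 2.26% and 2.40% with the scramble. In bulk RNA, fewer cells with a transcript, fewer mitochondria in each and less RNA from each cannot be told apart.

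Among mitochondrial transcripts, MT-ND3 and MT-ND4L, small subunits of the membrane core, and MT-ND4, one of the antiporter-like proton pumps, rose most in SKOV3, while MT-ND5 and MT-ND6 did not pass the test in any comparison with all libraries in. MT-ND3 was at 625, 573 and 543 CPM in RSF1delUAB libraries, 717, 445 and 552 CPM in RSF1 and 346, 369 and 420.1 CPM in control. Every construct library lay above every control library, the lowest being RSF1 replicate 2. Against control the log2 fold change was 0.62 ± 0.12 for RSF1delUAB (adjusted p = 8.93e-05) and 0.60 ± 0.12 for RSF1 (adjusted p = 0.000129), where ± is the standard error throughout. Without RSF1 replicate 1 the second became 0.40 (adjusted p = 8.29e-08), and over the 9 fits with 1 library left out it ran from 0.40 to 0.76.

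MT-ND4 had 5336, 5456 and 4622 CPM in RSF1delUAB libraries, 4761, 4749 and 4953 CPM in RSF1 and 4029.7, 3805 and 3821 CPM in control. The construct libraries did not overlap with control. It rose by 0.40 ± 0.06 with RSF1delUAB (adjusted p = 4.98e-06) and by 0.31 ± 0.06 with RSF1 (adjusted p = 0.000103). MT-ND4L, read from the same precursor, was at 504, 499 and 436 CPM in RSF1delUAB libraries, 385, 414 and 479.8 CPM in RSF1 and 353, 344 and 354 CPM in control. All 6 construct libraries again lay above control, and its log2 fold changes were 0.45 ± 0.08 (adjusted p = 2.56e-05) and 0.28 ± 0.08 (adjusted p = 0.00261). Both comparisons use the same 3 control libraries, so their likeness is no repeat.

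MT-ND2, another antiporter-like subunit, had 1753, 1779.7 and 1533 CPM in RSF1delUAB libraries, 1731, 1663 and 1687 CPM in RSF1 and 1507, 1463 and 1471 CPM in control. The lowest construct library was just above the highest control, and both log2 fold changes were 0.19 ± 0.06 (adjusted p = 0.0078 for RSF1delUAB and 0.00658 for RSF1). MT-ND1, at the entry of the quinone channel, was the member that differed between the constructs. It had 1805, 1859.8 and 1553 CPM in RSF1delUAB libraries, 1562, 1413 and 1565 CPM in RSF1 and 1589, 1509 and 1541 CPM in control. RSF1delUAB replicate 3 fell among the others, so the groups overlapped. Its log2 fold change was 0.17 ± 0.07 for RSF1delUAB against control (adjusted p = 0.0288), -0.03 ± 0.07 for RSF1 against control (adjusted p = 0.685, and 0.05 under upper-quartile scaling) and 0.20 ± 0.07 for RSF1delUAB against RSF1 (adjusted p = 0.0199). The first call was lost when any of 4 single libraries was left out (adjusted p up to 0.147), namely control replicate 2 or 3 or RSF1delUAB replicate 1 or 2. The third was lost without RSF1 replicate 2 or RSF1delUAB replicate 1 or 2 (adjusted p up to 0.136).

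MT-ND5, the outermost antiporter-like subunit, stood at 1749, 1823 and 1561 CPM in RSF1delUAB libraries, 1461, 1719 and 2033 CPM in RSF1 and 1675, 1576 and 1492 CPM in control. MT-ND6 stood at 498, 498 and 441 CPM in RSF1delUAB libraries, 547, 434 and 506 CPM in RSF1 and 469, 477 and 470.4 CPM in control. The groups overlapped for both. MT-ND5 gave 0.11 ± 0.09 for RSF1delUAB (adjusted p = 0.26) and 0.14 ± 0.09 for RSF1 (adjusted p = 0.177), and MT-ND6 0.02 ± 0.07 and 0.07 ± 0.07 (adjusted p = 0.82 and 0.412). Without RSF1 replicate 1, MT-ND5 passed in both, at 0.12 (adjusted p = 0.0265) and 0.25 (adjusted p = 4.05e-05), and without RSF1 replicate 2 MT-ND6 passed with RSF1 at 0.17 (adjusted p = 0.0341).

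**Figure D1:**
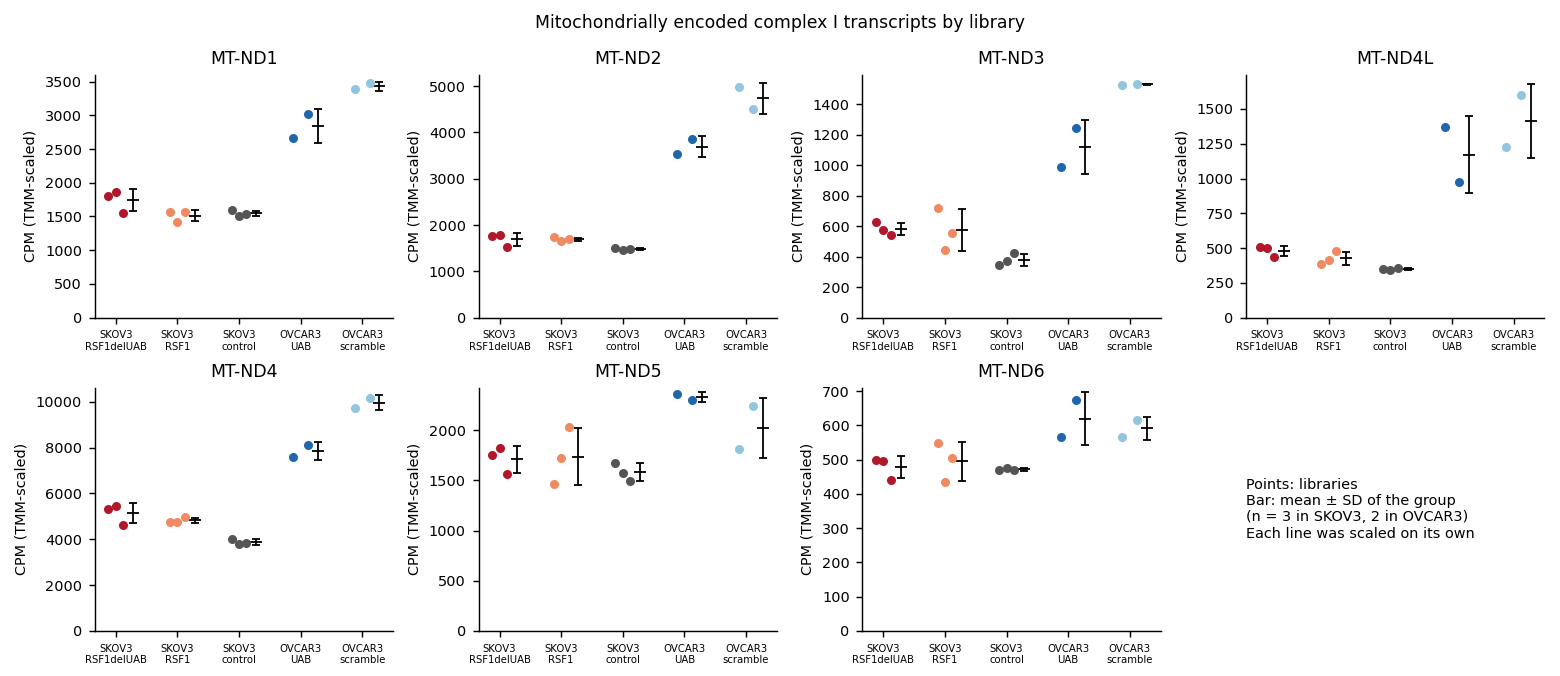
TMM-scaled CPM of the 7 mitochondrially encoded members in each library, grouped by line and construct, with the group mean and SD beside the points (n = 3 in SKOV3, 2 in OVCAR3; each axis starts at 0). MT-ND3, MT-ND4L and MT-ND4 stand above the control libraries in all 6 construct libraries, MT-ND5 and MT-ND6 overlap in SKOV3, and OVCAR3 lies above SKOV3 for most members.

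Ratios between mitochondrial members were also taken within each library. Per kilobase, MT-ND4 was 4.01, 3.94 and 3.89 times MT-ND5 in RSF1delUAB libraries, 4.28, 3.63 and 3.20 times in RSF1 and 3.16, 3.17 and 3.37 times in control. MT-ND3 per kilobase was 0.956, 0.851 and 0.965 of MT-ND1 in RSF1delUAB libraries, 1.27, 0.871 and 0.974 in RSF1 and 0.601, 0.675 and 0.753 in control. For the first ratio RSF1 overlapped with control and RSF1delUAB did not; for the second neither construct did. MT-ND4 was the highest member per kilobase in every group, at 3729 ± 327 CPM per kilobase in RSF1delUAB, 3498 ± 83.2 in RSF1 and 2819 ± 91.0 in control (SD, n = 3). MT-ND5 and MT-ND6 were the lowest in each SKOV3 group and did not differ beyond their spread, at 873 ± 50.7 and 899 ± 7.60 CPM per kilobase in control.

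In counts over both genomes, 5 mitochondrial members rose and the other 2 did not pass with RSF1delUAB against control, with 66.6% of all genes tested called. Of the nuclear members, 12 rose, 10 fell and 16 did not pass. With RSF1 against control, where 67.3% of all genes tested were called, 4 mitochondrial members rose and 3 did not pass, and 12 nuclear members rose, 13 fell and 13 did not pass. With all libraries in, the nuclear shares are close to the background, in which 34.5% of genes rose and 32.1% fell with RSF1delUAB and 34.3% rose and 32.9% fell with RSF1. Without RSF1 replicate 1, 12 nuclear members rose and 17 fell with RSF1. Of the 17299 genes then tested, 5900 rose and 5733 fell. Log2 fold changes moved down for NDUFB1 (1.20 to 0.96), NDUFC2 (0.55 to 0.33) and NDUFB3 (-0.41 to -0.67), and up for NDUFA13 (0.49 to 0.56). Median log2 fold changes were 0.19 over the mitochondrial members in both comparisons, and 0.02 with RSF1delUAB and 0.00 with RSF1 over the nuclear members, beside 0.02 over all genes in each. RSF1delUAB and control libraries did not overlap for 4 mitochondrial and 26 nuclear members, where 72.9% of all genes did not, and RSF1 and control libraries for 4 and 22, where 69.0% did not. All mitochondrial calls against control were thus rises, and the nuclear ones went both ways.

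**Figure D2:**
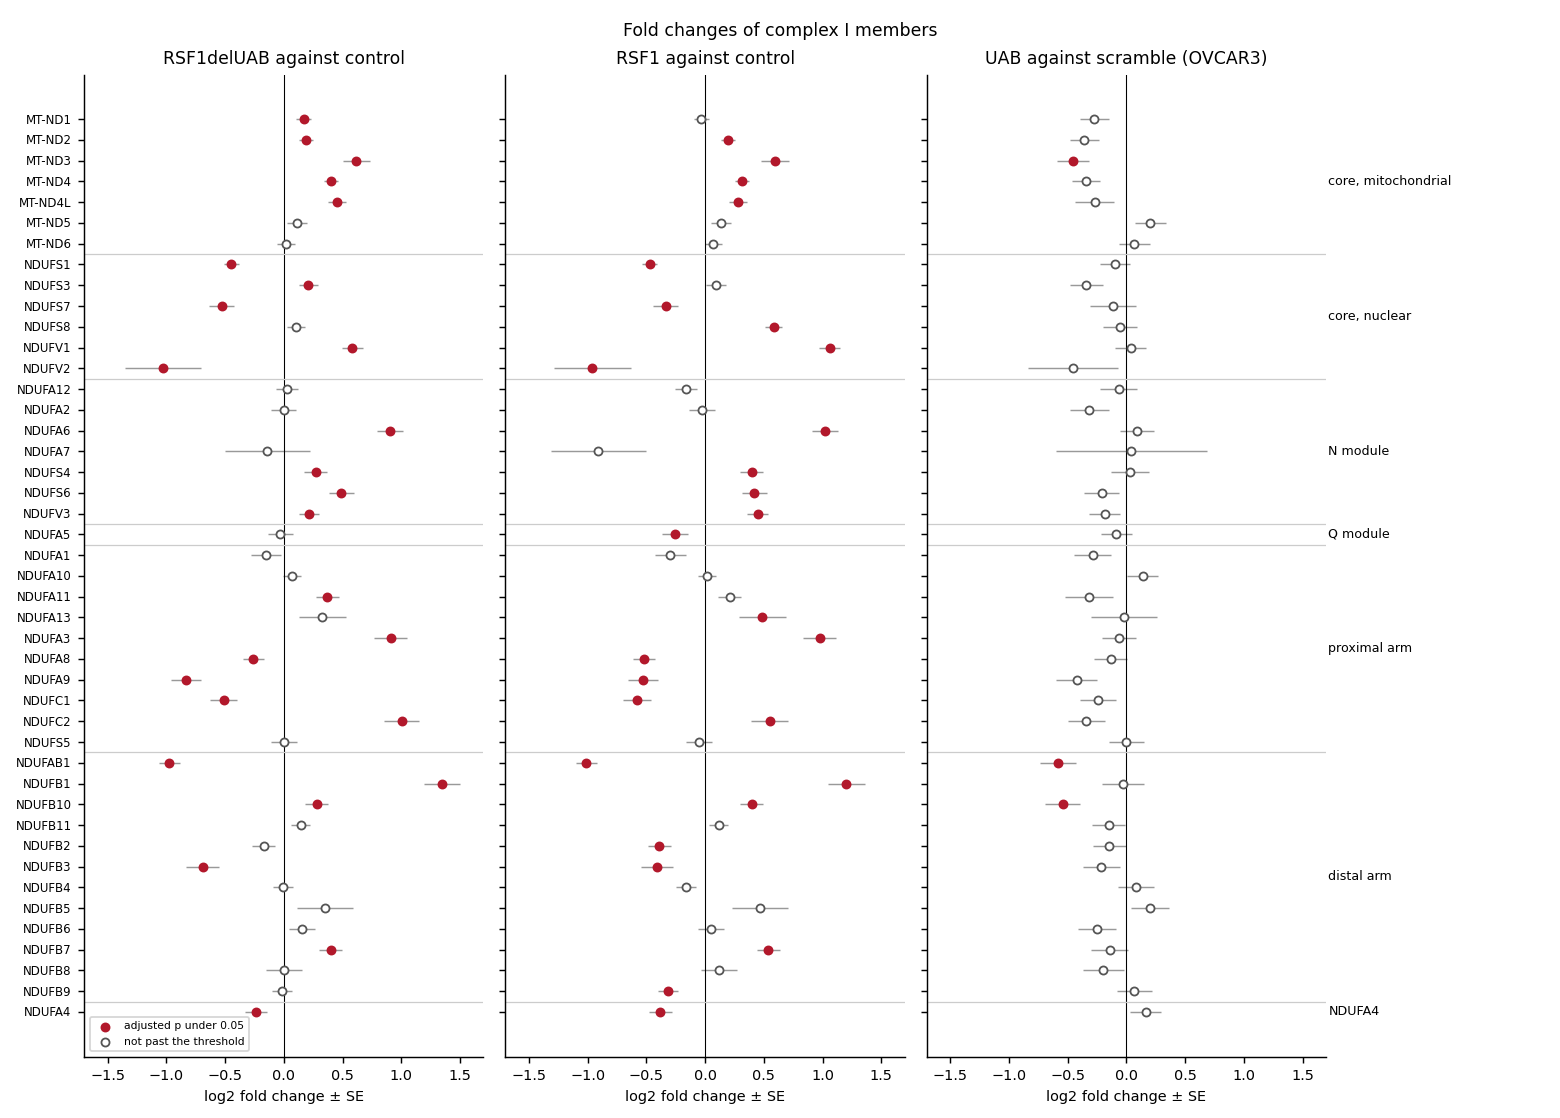
Log2 fold change with its standard error (x axis) for the members reported here (y axis, grouped by module) in 3 comparisons. Filled points passed an adjusted p of 0.05: the mitochondrial core lies at or right of 0 in SKOV3, apart from MT-ND1 at -0.03 with RSF1 (0.05 under upper-quartile scaling), the nuclear members spread from -1.02 to 1.34 with RSF1delUAB, and 3 members are filled in OVCAR3.

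The nuclear core, which carries the flavin and iron-sulphur clusters of the peripheral arm, split by subunit. NDUFV1, which binds the flavin and oxidises NADH (chromosome 11, 67605653 to 67612554), had 106, 93.3 and 95.8 CPM in RSF1delUAB libraries, 154, 121 and 137 CPM in RSF1 and 68.9, 68.9 and 59.4 CPM in control. The 3 groups did not overlap. It rose by 0.58 ± 0.09 with RSF1delUAB (adjusted p = 7.85e-06) and by 1.06 ± 0.09 with RSF1 (adjusted p = 1.69e-09), and was 0.48 ± 0.09 lower in RSF1delUAB than in RSF1 (adjusted p = 0.000162).

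NDUFS8, which holds a pair of iron-sulphur clusters and lies on the same chromosome (68030617 to 68036644), had 81.3, 78.1 and 80.5 CPM in RSF1delUAB libraries, 124, 104 and 107 CPM in RSF1 and 77.0, 72.2 and 73.9 CPM in control. RSF1 stood clear of both other groups. It rose by 0.58 ± 0.07 with RSF1 (adjusted p = 7.31e-07), gave 0.11 ± 0.07 with RSF1delUAB (adjusted p = 0.221) and was 0.48 ± 0.07 lower in RSF1delUAB than in RSF1 (adjusted p = 2.69e-05). NDUFS3, a linking subunit of the Q module, had 56.6, 53.9 and 55.1 CPM in RSF1delUAB libraries, 57.3, 49.3 and 46.6 CPM in RSF1 and 45.1, 48.6 and 49.8 CPM in control. Its RSF1 libraries overlapped with control. The log2 fold change was 0.21 ± 0.08 with RSF1delUAB (adjusted p = 0.0315), 0.09 ± 0.08 with RSF1 (adjusted p = 0.322) and 0.11 ± 0.08 for RSF1delUAB against RSF1 (adjusted p = 0.296). The first was lost without control replicate 1 or 2 or RSF1delUAB replicate 1 or 3 (adjusted p up to 0.138).

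Core subunits also fell. NDUFS1, the largest of the peripheral arm, had 105, 105 and 111 CPM in RSF1delUAB libraries, 104, 103 and 109 CPM in RSF1 and 143, 144 and 151 CPM in control, with no overlap between constructs and control. It fell by 0.45 on the log2 scale with RSF1delUAB (adjusted p = 3.25e-06) and by 0.47 with RSF1 (adjusted p = 1.67e-06). NDUFS7, with the last cluster of the chain, had 36.6, 30.8 and 33.0 CPM in RSF1delUAB libraries, 45.1, 36.9 and 33.1 CPM in RSF1 and 45.4, 54.7 and 45.04 CPM in control. RSF1 replicate 1 reached the level of control, and the log2 fold changes were -0.53 ± 0.11 (adjusted p = 0.000196) and -0.34 ± 0.11 (adjusted p = 0.00883), the second lost without control replicate 2 or RSF1 replicate 3 (adjusted p up to 0.081).

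NDUFV2, the partner of NDUFV1, was read at 0.744, 1.10 and 1.17 CPM in RSF1delUAB libraries, 1.04, 0.953 and 1.13 CPM in RSF1 and 1.46, 2.65 and 2.00 CPM in control. These are 14 to 40 reads per library for a subunit that the enzyme needs, and 82.9% of its principal transcript lies in exons of another annotated gene on the same strand that was listed at 0 counts throughout. Its pseudogene NDUFV2P1 held 408% of its reads in RSF1delUAB libraries, 437% in RSF1 and 365% in control. The log2 fold changes of -1.02 ± 0.32 (adjusted p = 0.00877) and -0.96 ± 0.33 (adjusted p = 0.0137) are therefore uncertain. Without control replicate 2 neither passed (-0.79, adjusted p = 0.0693, and -0.72, adjusted p = 0.0962), and the RSF1delUAB call was also lost without its replicate 1.

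Of the 7 accessory subunits of the N module, 4 rose with each construct and 3 did not pass, where 34.5% of all genes rose with RSF1delUAB and 34.3% with RSF1. NDUFA6, which docks the acyl carrier protein (chromosome 22, 42085526 to 42090884), had 74.4, 71.6 and 67.1 CPM in RSF1delUAB libraries, 94.9, 67.1 and 69.2 CPM in RSF1 and 33.8, 40.5 and 39.6 CPM in control. Every construct library was above every control library, with log2 fold changes of 0.90 ± 0.11 (adjusted p = 4.25e-07) and 1.02 ± 0.11 (adjusted p = 7.85e-08). NDUFS6, known for a zinc site, rose by 0.49 and 0.42 and NDUFS4, needed late in assembly, by 0.27 and 0.40, its first call lost without control replicate 1 or RSF1delUAB replicate 1 (adjusted p up to 0.073). NDUFV3, a small subunit beside the flavin site, had 33.4, 31.1 and 30.9 CPM in RSF1delUAB libraries, 41.1, 36.2 and 34.8 CPM in RSF1 and 27.8, 26.4 and 28.04 CPM in control. The 3 groups did not overlap. It rose by 0.21 ± 0.09 (adjusted p = 0.0348) and 0.45 ± 0.09 (adjusted p = 0.000121) and was lower in RSF1delUAB than in RSF1 by 0.23 ± 0.08 (adjusted p = 0.0338). The RSF1delUAB rise was lost without RSF1delUAB replicate 1 or any 1 control library (adjusted p up to 0.12), and the difference between constructs without RSF1 replicate 1 or RSF1delUAB replicate 2 or 3 (adjusted p up to 0.146). NDUFA2 and NDUFA12 did not pass (adjusted p of at least 0.143), nor did NDUFA7, which had 7 to 21 reads in SKOV3. In the Q module NDUFA5 gave -0.03 with RSF1delUAB (adjusted p = 0.828) and fell by 0.26 with RSF1 (adjusted p = 0.0443), with 0.23 between RSF1delUAB and RSF1 (adjusted p = 0.105). The fall passed in only 2 of the 9 fits with 1 library left out, those without control replicate 1 or RSF1 replicate 1, and was -0.13 without RSF1 replicate 3 (adjusted p = 0.30).

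Among the 10 genes listed with the proximal membrane arm, 3 rose and 3 fell with each construct, close to the shares over all genes. Those were 34.5% higher and 32.1% lower with RSF1delUAB, and 34.3% and 32.9% with RSF1. NDUFC2, a small membrane subunit (chromosome 11, 78068297 to 78079862), had 20.5, 22.7 and 27.0 CPM in RSF1delUAB libraries, 21.97, 13.8 and 15.5 CPM in RSF1 and 10.8, 13.2 and 10.98 CPM in control. The groups with constructs lay above control, RSF1 replicate 2 only just. NDUFC2 rose by 1.00 ± 0.15 (adjusted p = 6.74e-06) and 0.55 ± 0.16 (adjusted p = 0.004), and was 0.45 ± 0.14 higher in RSF1delUAB than in RSF1 (adjusted p = 0.0164). On chromosome 11, 247427 bases lie between this gene and RSF1 itself.

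NDUFA3, another small membrane subunit, had 38.3, 37.7 and 38.9 CPM in RSF1delUAB libraries, 51.9, 30.2 and 38.3 CPM in RSF1 and 18.1, 19.4 and 23.6 CPM in control. No construct library reached down to control, and it rose by 0.91 ± 0.14 (adjusted p = 1.13e-05) and 0.98 ± 0.14 (adjusted p = 4.72e-06). NDUFA11 rose with RSF1delUAB (0.37, adjusted p = 0.00225) where RSF1 gave 0.21 (adjusted p = 0.0651), and NDUFA13 with RSF1 (0.49, adjusted p = 0.0383) where RSF1delUAB gave 0.33 (adjusted p = 0.16). Between the constructs they gave 0.16 and -0.16 (adjusted p = 0.205 and 0.547). The NDUFA13 call was lost without any 1 control library or RSF1 replicate 2 or 3 (adjusted p up to 0.108).

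NDUFA9, a subunit at the junction of the arms with a bound nucleotide, had 7.23, 6.82 and 7.76 CPM in RSF1delUAB libraries, 9.58, 9.84 and 7.48 CPM in RSF1 and 13.2, 13.5 and 12.1 CPM in control. Both constructs lay below control, and it fell by 0.83 (adjusted p = 1.28e-05) and 0.53 (adjusted p = 0.00127). NDUFC1 had 22.4, 20.7 and 18.5 CPM in RSF1delUAB libraries, 24.3, 18.4 and 16.5 CPM in RSF1 and 28.7, 28.9 and 30.6 CPM in control, likewise apart, with falls of 0.51 (adjusted p = 0.00065) and 0.58 (adjusted p = 0.000235). NDUFA8, a subunit of the intermembrane face, had 75.1, 72.4 and 69.3 CPM in RSF1delUAB libraries, 71.9, 54.5 and 54.9 CPM in RSF1 and 84.3, 82.7 and 92.5 CPM in control. It fell by 0.26 (adjusted p = 0.0167) and 0.52 (adjusted p = 4.88e-05), the first lost without control replicate 3 or RSF1delUAB replicate 2 or 3 (adjusted p up to 0.0973). NDUFA1, NDUFA10 and NDUFS5 did not pass in either comparison.

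In the distal arm, 3 of 12 members rose with each construct, 2 fell with RSF1delUAB and 4 with RSF1. Of all genes, 34.5% rose and 32.1% fell with RSF1delUAB, and 34.3% rose and 32.9% fell with RSF1. NDUFB1, a small membrane subunit (chromosome 14, 92116122 to 92121917), showed the largest rise of any member against control with both constructs, at 30.5, 25.9 and 25.3 CPM in RSF1delUAB libraries, 32.5, 19.9 and 21.9 CPM in RSF1 and 9.40, 10.6 and 12.1 CPM in control. The construct libraries were all above control, and the log2 fold changes were 1.34 ± 0.15 (adjusted p = 1.85e-07) and 1.20 ± 0.16 (adjusted p = 1.01e-06). NDUFAB1, the mitochondrial acyl carrier protein, which sits in both arms and also serves lipoic acid synthesis (chromosome 16, 23581014 to 23596316), had 30.9, 28.1 and 33.4 CPM in RSF1delUAB libraries, 34.2, 29.3 and 26.7 CPM in RSF1 and 61.4, 60.6 and 59.8 CPM in control. No construct library exceeded 34.2 CPM and no control library was under 59.8 CPM. It fell by 0.98 (adjusted p = 7.69e-09) and 1.01 (adjusted p = 5.22e-09). NDUFB3 fell by 0.69 and 0.41, NDUFB7 rose by 0.40 and 0.54 and NDUFB10 by 0.28 and 0.40. The RSF1 call of NDUFB3 was lost without control replicate 3 or RSF1 replicate 2 or 3 (adjusted p up to 0.112), and the RSF1delUAB call of NDUFB10 without control replicate 2 or 3 or RSF1delUAB replicate 1 (adjusted p up to 0.0659). NDUFB2 and NDUFB9 fell with RSF1 by 0.39 and 0.32. NDUFB4, NDUFB5, NDUFB6, NDUFB8 and NDUFB11 did not pass in either. NDUFA4, the complex IV subunit, fell by 0.23 (adjusted p = 0.0341) and 0.38 (adjusted p = 0.00141), the first lost without control replicate 2 or 3 or any 1 RSF1delUAB library (adjusted p up to 0.182).

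RSF1delUAB and RSF1 differ in the UAB region and also in RSF1 level, as given above, and these cannot be told apart here. Between them 7 members were called where 38.6% of all genes tested were. MT-ND1, NDUFC2, NDUFB9 and NDUFA8 were higher in RSF1delUAB, as were 20.2% of all genes, and NDUFV1, NDUFS8 and NDUFV3 lower, as were 18.5%. The libraries of the 2 constructs did not overlap for 5 nuclear members, where 46.9% of all genes did not. NDUFB9, a further partner of the acyl carrier protein, had 128, 122.5 and 124 CPM in RSF1delUAB libraries and 119, 87.4 and 96.8 CPM in RSF1 libraries, which stayed apart by a narrow margin (0.30 ± 0.09, adjusted p = 0.00785). For NDUFA8 the values above give 0.26 ± 0.09 (adjusted p = 0.0304), with RSF1 replicate 1 inside the range of RSF1delUAB. That call was lost without RSF1 replicate 2 or 3 or any 1 RSF1delUAB library (adjusted p up to 0.161), that of NDUFB9 without RSF1 replicate 2 (adjusted p = 0.0651), and that of NDUFC2 without RSF1 replicate 2 or 3 or RSF1delUAB replicate 3 (adjusted p up to 0.118). The counts lean on RSF1 replicate 1, the library that stood apart: nuclear members were in the median 0.36 log2 units higher there than in the other RSF1 libraries, and mitochondrial members 0.05. Without it 15 nuclear members were higher in RSF1delUAB and 2 lower, and 3 mitochondrial members were called. The values of NDUFV1 and NDUFS8 were then -0.39 (both; adjusted p = 1.85e-06 and 2.79e-07), and that of NDUFC2 was 0.68 (adjusted p = 4.51e-06). Leaving out RSF1 replicate 2 left no nuclear member higher, and leaving out RSF1 replicate 3 or RSF1delUAB replicate 3 left 1.

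In OVCAR3 the UAB peptide came with 3 member calls against the scramble, all lower, where 10.9% of all genes tested were called, 5.45% higher and 5.46% lower. MT-ND3 had 990.4 and 1241 CPM with the UAB peptide and 1527 and 1533 CPM with the scramble, a log2 fold change of -0.46 ± 0.13 (adjusted p = 0.0434). NDUFAB1 had 56.9 and 73.0 CPM with the UAB peptide and 104 and 89.7 CPM with the scramble (-0.58 ± 0.15, adjusted p = 0.0236). NDUFB10, a subunit of the intermembrane face (chromosome 16, 1959538 to 1961975), had 201 and 241 CPM with the UAB peptide and 362 and 282 CPM with the scramble (-0.54 ± 0.15, adjusted p = 0.032). For all 3 the groups did not overlap, as for 54.1% of all genes in this comparison of 2 against 2 libraries. Libraries also differed by transcript length. Genes with a principal transcript under 1 kb were a median 0.16 log2 units higher in scramble replicate 1 than in replicate 2, and those over 4 kb 0.10 lower. In UAB replicate 1 they were 0.23 lower and 0.16 higher than in replicate 2. The principal transcripts of NDUFAB1 and NDUFB10 have 885 and 705 bases, and the part of this skew in their calls was not tested. The calls of NDUFAB1 and NDUFB10 were lost without scramble replicate 1 or UAB replicate 1 (adjusted p of 0.150 to 0.347), and that of MT-ND3 without either scramble library or UAB replicate 1 (adjusted p of 0.0705 to 0.400).

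The other mitochondrial members had log2 fold changes of -0.36 ± 0.12 for MT-ND2 (adjusted p = 0.0762), -0.34 ± 0.12 for MT-ND4 (adjusted p = 0.0766), and -0.27 for both MT-ND1 and MT-ND4L (adjusted p = 0.181 and 0.349). MT-ND5 and MT-ND6 were at 0.21 and 0.07 (adjusted p = 0.367 and 0.811). MT-ND4 had 7575 and 8125 CPM with the UAB peptide and 9722 and 10186 CPM with the scramble, and MT-ND2 3531 and 3859 CPM with the peptide and 4973 and 4504 CPM with the scramble. MT-ND1 had 2663 and 3026 CPM with the peptide and 3387 and 3481 CPM with the scramble. For these 3 both UAB libraries lay below both scramble libraries. MT-ND4L, at 1369 and 975 CPM with the peptide and 1223 and 1602 CPM with the scramble, overlapped, as did MT-ND6, at 565 and 674 CPM with the peptide and 567 and 616 CPM with the scramble. MT-ND5, at 2363 and 2299 CPM with the peptide and 1808 and 2236 CPM with the scramble, lay the other way. Per kilobase MT-ND4 was 4.22 and 4.65 times MT-ND5 with the UAB peptide and 7.07 and 5.99 times with the scramble. Over the nuclear members the median log2 fold change was -0.12, beside 0.01 over all genes. The 36 nuclear members that did not pass ranged from -0.46 for NDUFV2 (adjusted p = 0.508) to 0.20 for NDUFB5 (adjusted p = 0.483). NDUFC2, which rose in SKOV3, had 240.2 and 327 CPM with the UAB peptide and 391 and 327 CPM with the scramble (-0.34, adjusted p = 0.189), and NDUFA9, which fell there, had 14.6 and 13.5 CPM with the peptide and 20.9 and 16.8 CPM with the scramble (-0.42, adjusted p = 0.133).

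Summed per kilobase, the mitochondrial members came to 12859, 12902 and 11186 in RSF1delUAB libraries, 11971, 10976 and 12145 in RSF1 and 10038, 9747 and 9923 in control. Neither construct overlapped with control. The nuclear sums were 1352, 1272 and 1344 in RSF1delUAB libraries, 1600.5, 1137 and 1173 in RSF1 and 1185, 1302 and 1302 in control, where RSF1 replicate 1 was the highest of the 9. The ratio of the sums was 9.51, 10.1 and 8.32 in RSF1delUAB libraries, 7.48, 9.66 and 10.4 in RSF1 and 8.47, 7.48 and 7.62 in control, so that both constructs overlapped with control by this length. In OVCAR3 it was 15.7 and 12.9 with the UAB peptide and 13.6 and 16.9 with the scramble, and those groups overlapped too. A ratio over chosen genes was given no test. The deposited length counts the exons of all transcripts of a gene, and with the length of the principal transcript the ratio was 5.79, 6.14 and 5.11 in RSF1delUAB libraries, 4.65, 5.76 and 6.23 in RSF1 and 5.04, 4.57 and 4.70 in control. RSF1delUAB then stood narrowly clear of control, and RSF1 still overlapped.

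**Figure D3:**
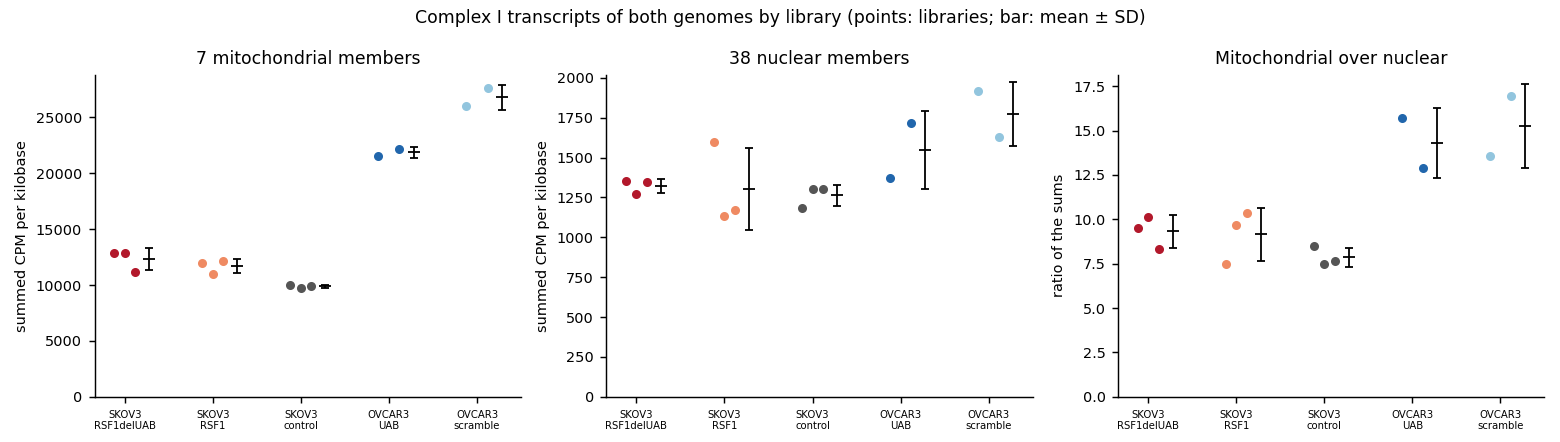
Summed CPM per kilobase of the mitochondrial and the nuclear members, and the ratio of the sums, in each library (points) with group mean and SD. The mitochondrial sums of the 6 SKOV3 construct libraries, from 10976 to 12902, all exceed the control libraries, while the nuclear sums and the ratios overlap by the deposited length drawn here (by principal transcript length the RSF1delUAB ratios, from 5.11, lie above control, up to 5.04).

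The fold changes of nuclear members were also set beside those of the genes that surround them. For each member, the median log2 fold change of the 50 nearest tested genes on its chromosome was taken. Across the 38 members the 2 values had Pearson r = 0.738 and Spearman rho = 0.668 with RSF1delUAB, and r = 0.720 and rho = 0.640 with RSF1. Over all 16696 nuclear genes with such a value r was 0.277 and 0.278, and rho 0.402 and 0.413. These are descriptions across genes of the same libraries, with no test. The 2 sets are also unlike in spread, which limits how far their r values can be compared. With RSF1delUAB, log2 fold changes ran from -12.2 to 13.8 over all genes tested and from -1.02 to 1.34 over the nuclear members. Of the members called, 19 of 22 with RSF1delUAB and 21 of 25 with RSF1 had the sign of their neighbourhood, beside 70.2% and 70.4% of all called genes.

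The members with the largest rises lay in neighbourhoods that were high as a whole. NDUFB1 had 1.34 with RSF1delUAB and 1.20 with RSF1 beside neighbourhood medians of 0.92 and 0.98. NDUFA6 had 0.90 and 1.02 beside 0.84 and 0.86, and NDUFA3 0.91 and 0.98 beside 0.58 and 0.78. NDUFC2 had 1.00 and 0.55 beside 0.68 and 1.03, and for RSF1delUAB against RSF1 it had 0.45 beside -0.34. NDUFV1 had 0.58 and 1.06 beside 0.60 and 0.76, and NDUFS8, less than 1 Mb away by the positions given above, 0.11 and 0.58 beside 0.52 and 0.81. NDUFC1 lay in a low neighbourhood, at -0.51 and -0.58 beside -0.77 and -0.78. Other members departed from theirs: NDUFAB1 had -0.98 and -1.01 beside -0.21 and -0.05, NDUFA9 -0.83 and -0.53 beside -0.14 and -0.10, and NDUFV3 0.21 and 0.45 beside -0.44 and -0.39. NDUFB3 had -0.69 and -0.41 beside 0.07 and 0.21, and NDUFB10 0.28 and 0.40 beside -0.21 and -0.14. Subtracting the neighbourhood took the SD of the members' log2 fold changes to 0.35 with RSF1delUAB, where it was 0.52 before, and to 0.39 with RSF1, where it was 0.56.

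**Figure D4:**
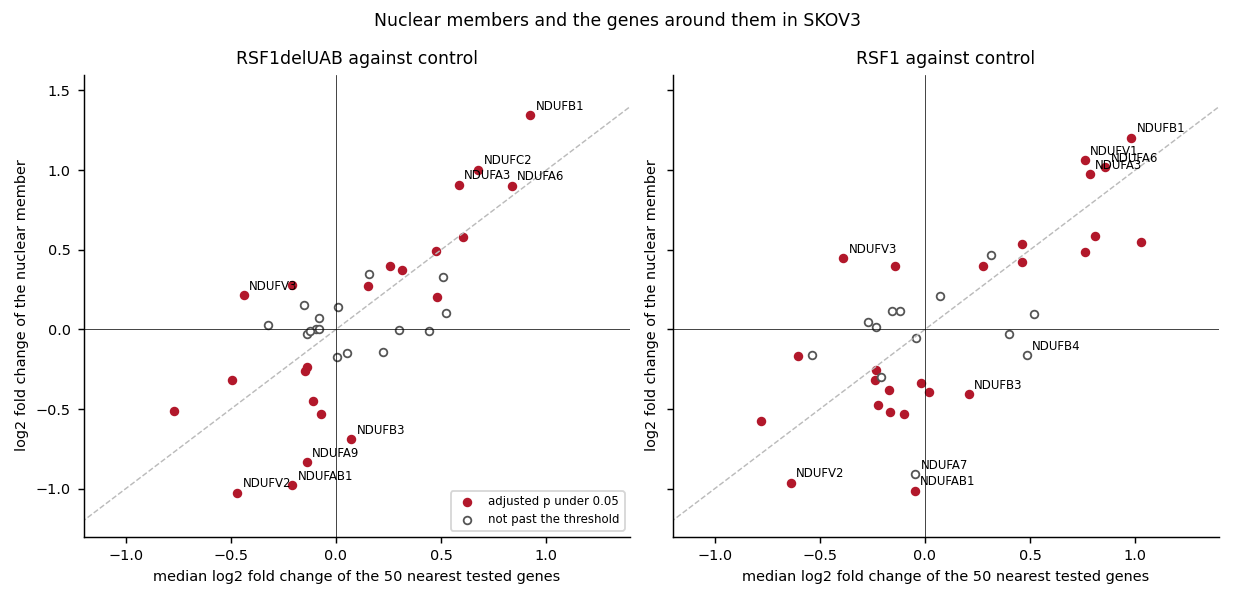
Log2 fold change of each of the 38 nuclear members (y axis) against the median of its 50 nearest tested genes (x axis) in SKOV3, for RSF1delUAB and RSF1 against control; filled points passed an adjusted p of 0.05 and the dashed line marks equal values. NDUFB1, NDUFA3 and NDUFA6 stand at the upper right with their neighbours, and NDUFAB1 lies near -1 beside neighbours near 0.

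NDUFA3 and NDUFA9 are shown with their upstream sequence, since both carry the letters GCGC, any base and TGCGC in a row, searched on both strands as a motif of NRF1, a regulator of respiratory genes, and yet one rose and the other fell. RefSeq windows (GRCh38.p14) run from 250 bases before the transcript start and are printed as far as the start of the gene in the deposited tables, with the match in capitals.
NDUFA3 (chr19:54102605-54102727, + strand): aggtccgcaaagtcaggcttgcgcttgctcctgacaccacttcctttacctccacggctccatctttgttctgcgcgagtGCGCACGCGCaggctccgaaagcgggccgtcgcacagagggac
NDUFA9 (chr12:4648864-4649094, + strand): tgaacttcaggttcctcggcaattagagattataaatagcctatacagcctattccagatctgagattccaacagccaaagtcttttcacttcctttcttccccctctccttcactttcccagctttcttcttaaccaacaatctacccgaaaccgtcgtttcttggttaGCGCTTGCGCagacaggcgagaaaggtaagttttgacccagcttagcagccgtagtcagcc
The match lay 170 bases before the RefSeq start of NDUFA3 and 80 before that of NDUFA9. Windows were in the table for 32 of the 38 nuclear members, 39 windows in all. The letters stood in 6 of these 39 (15.4%) and in 5.78% of the 35116 windows of all genes. Of the 6 members with it, 2 rose, 2 fell and 2 did not pass with RSF1delUAB, and 1, 2 and 3 with RSF1. AANATGGC, a motif of YY1 and searched the same way, stood in 14 member windows (35.9%) and in 6.58% of all. Its 13 genes split into 5 that rose, 4 that fell and 4 that did not pass, in each of the 2 comparisons. CCGGAAG, for ETS factors, was in 12.8% of member windows and 10.3% of all, and GGGCGG, for SP1, in 66.7% of member windows and in 15786 of the 35116. A match is a stretch of letters and not a bound site.

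Levels per length in the scramble and control-vector groups differed between the lines most for NDUFC2. Per kilobase it was 156 ± 19.6 CPM in OVCAR3 scramble (SD, n = 2) and 5.06 ± 0.583 CPM in SKOV3 control (SD, n = 3), a ratio of 30.8. NDUFA3 was 98.2 ± 7.25 CPM per kilobase in OVCAR3 scramble and 8.24 ± 1.18 in SKOV3 control, and NDUFB10 309 ± 54.2 and 58.5 ± 1.81. Among mitochondrial members the ratio of OVCAR3 scramble to SKOV3 control was highest for MT-ND3 and MT-ND4L (4.04 and 4.03) and lowest for MT-ND6 and MT-ND5 (1.25 and 1.28). The median ratio was 2.56 over the mitochondrial and 1.24 over the nuclear members. The tables were scaled apart, and line, vector and doxycycline cannot be told apart here, so no test was made. The highest nuclear member per kilobase was NDUFS5 in SKOV3 control (357 ± 32.6 CPM per kilobase), RSF1 (345 ± 80.7) and RSF1delUAB (357 ± 21.9). In OVCAR3 it was NDUFS5 with the UAB peptide (245 ± 36.3) and NDUFB10 with the scramble.

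**Figure D5:**
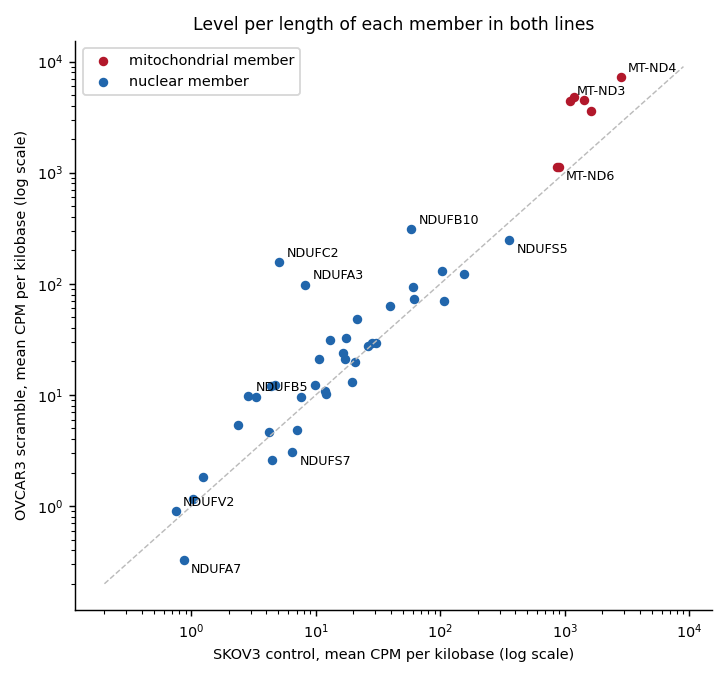
Mean CPM per kilobase of each member in OVCAR3 scramble libraries (y axis, log scale, n = 2) against SKOV3 control libraries (x axis, log scale, n = 3), with the dashed line at equal levels. The 7 mitochondrial members lie at the upper right, and NDUFC2, NDUFA3 and NDUFB10 lie furthest above the line among the nuclear members.

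Some nuclear members share exons with other genes, and the use of strand in the counting is not stated. The principal transcripts of 17 nuclear members share bases with another gene, and 5 of them the greater part. NDUFB2 shares 83.4% (with BRAF on the opposite strand and others), NDUFV2 82.9%, NDUFA7 78.7%, NDUFB8 71.7% and NDUFA11 67.0%, so their levels cannot be set against other members. With these 5 left out, 11 nuclear members rose and 9 fell with RSF1delUAB, and 12 rose and 11 fell with RSF1.

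Of the 6 other messages of the mitochondrial genome 3 rose with each construct. Over all genes, 34.5% rose with RSF1delUAB and 34.3% with RSF1, and 66.6% and 67.3% were called in either direction. Among the messages that rose were MT-CYB of complex III (0.72 with RSF1delUAB and 0.47 with RSF1) and MT-CO3 of complex IV (0.62 and 0.49). In this RNA captured on poly-T beads, both mitochondrial ribosomal RNAs rose. MT-RNR1 rose by 1.36 with RSF1delUAB and 0.54 with RSF1, and MT-RNR2 by 1.11 and 0.22. Both were also higher in RSF1delUAB than in RSF1, by 0.83 and 0.89 (adjusted p = 4.71e-09 and 4.05e-10). In OVCAR3 the median log2 fold change over the 6 messages was -0.23, and none of the 8 passed by edgeR.

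Of 17 complex I assembly factors, 2 rose and 7 fell with RSF1delUAB, and 7 rose and 6 fell with RSF1, beside 34.5% of all genes higher and 32.1% lower with RSF1delUAB and 34.3% and 32.9% with RSF1. ACAD9 rose (0.65 and 0.61), as did NDUFAF7 (0.26 and 0.46), and NDUFAF4 fell (-0.76 and -0.52). FOXRED1 fell with RSF1delUAB (-0.38) and TMEM70 with RSF1 (-0.34). Against RSF1, RSF1delUAB had 5 assembly factors lower and 12 that did not pass, where 18.5% of all genes were lower, with TMEM126B at -0.72 and FOXRED1 at -0.52. The median over the 17 was -0.17 with RSF1delUAB and 0.00 with RSF1.

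Subunits of the other respiratory complexes also split in both directions, as did all genes tested. Of all genes, 34.5% rose and 32.1% fell with RSF1delUAB, and 34.3% rose and 32.9% fell with RSF1. In complex II, SDHA rose with both constructs (0.49 and 0.60), while SDHB and SDHC fell with RSF1delUAB (-0.43 and -0.22). Of 9 nuclear complex III genes 3 rose and 2 fell with RSF1delUAB and 2 and 3 with RSF1, with UQCR10 at 1.13 in both, UQCRFS1 at 0.38 and 0.63, UQCRC1 at -0.47 and -0.51 and CYC1 at -0.35 and -0.45. Of 10 complex IV genes 3 rose and 2 fell with RSF1delUAB and 3 and 3 with RSF1; COX5B (1.26) and COX6B1 (0.36) rose and COX7A2 (-0.28) and COX6C (-0.23) fell with RSF1delUAB, and COX6B1 (0.58) and COX4I1 (0.50) rose and COX6C (-0.67) and COX6A1 (-0.63) fell with RSF1. Of 15 ATP synthase genes 5 rose and 6 fell with RSF1delUAB and 4 and 5 with RSF1, with ATP5PD at 0.68 and 0.65 and ATP5F1B at -0.47 and -0.43. ATP5MC2 (0.45) and ATP5MF (-0.42) were named with them for RSF1delUAB, and ATP5MC1 (0.58) and ATP5PF (-0.54) for RSF1.

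Of 15 tested factors for processing and stability of mitochondrial RNA, 3 rose and 9 fell with RSF1delUAB and 3 rose and 8 fell with RSF1, beside 34.5% and 32.1% of all genes that rose and fell with RSF1delUAB and 34.3% and 32.9% with RSF1. GRSF1, an RNA-granule protein, was at -1.02 and -1.06 and HSD17B10, a subunit of mitochondrial RNase P, at -1.001 and -0.91, while SLIRP, which stabilises mitochondrial messages, was at 0.87 and 1.00 and TRMT10C, a further RNase P subunit, at 0.62 and 0.42. Of 11 genes for transcription and replication of mitochondrial DNA, 3 rose and 3 fell with RSF1delUAB and 1 and 3 with RSF1, among them POLG2 (0.72 and 0.34), POLG (-0.72 and -0.48) and TFB2M (-0.85 and -0.57). POLRMT, the mitochondrial RNA polymerase, rose with RSF1delUAB (0.19), and TFAM, which packages the genome, was 0.49 higher in RSF1delUAB than in RSF1 (adjusted p = 5.49e-05). Of 77 tested mitochondrial ribosomal protein genes 21 rose and 23 fell with RSF1delUAB and 22 and 19 with RSF1, with MRPL40 at 1.69 and 1.82 and MRPS6 at -1.18 and -1.41.

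Of 9 regulators of nuclear respiratory genes, 2 rose and 6 fell with RSF1delUAB, and 3 rose and 4 fell with RSF1, where 34.5% of all genes rose and 32.1% fell with RSF1delUAB and 34.3% and 32.9% with RSF1. PPARGC1A, a coactivator of mitochondrial biogenesis, averaged 1.97 ± 0.246 CPM in RSF1delUAB, 1.36 ± 0.151 CPM in RSF1 and 0.154 ± 0.153 CPM in control (SD, n = 3), rises of 3.62 (adjusted p = 1.43e-06) and 3.09 (adjusted p = 2.21e-05) from a low level. ESRRA fell by 0.93 and 0.62, PPRC1 by 0.90 and 0.56 and GABPA by 0.49 and 0.73, while YY1 rose by 0.18 and 0.16. MYC rose with RSF1 (0.82, adjusted p = 1.38e-09) and was 0.92 lower in RSF1delUAB than in RSF1 (adjusted p = 1.16e-09). In OVCAR3 the genes of these lists that passed were 2 ribosomal protein genes, MRPS34 (-0.74, adjusted p = 0.00396) and MRPS35 (-0.55, adjusted p = 0.0245).

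Summed CPM of 5 fibroblast markers moved with the constructs, at 120.2 to 132 in RSF1delUAB libraries, 52.0 to 53.6 in RSF1 and 6.29 to 7.30 in control. The 4 endothelial markers summed to 0.532 to 0.924 CPM in RSF1delUAB libraries, 0.635 to 0.943 in RSF1 and 5.23 to 7.63 in control, and the 10 epithelial and ovarian ones to 8939 to 9496 CPM in RSF1delUAB libraries, 4053 to 4606 in RSF1 and 9343 to 10093 in control. In SKOV3 the last sum is mostly ERBB2, which ran from 2139 to 8723 CPM, while each of the other 9 stayed at or under 736 CPM. Their part in the member results was not tested.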

How the data were processed

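RNA of 13 libraries was captured by poly-T beads, and random hexamers primed the copies, per the labels' protocols. The values are raw read counts for each gene as the authors deposited them, in a separate table for either line. FastQC, STAR 2.7.9a and Subread, and the builds GRCh38, hg38 and GRCm38, come from the submitters' processing notes. Which annotation and strand option were used is not given in the sources used here. One broken record was rejoined from 3 lines. Gene positions and exonic lengths are those deposited, per the file headers.

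Groups follow the labels, though 1 column, taken for OVCAR3 scramble replicate 2, bears a letter that no label explains. The lines were modelled separately in edgeR 4.0.16 under R 4.3.3 (quasi-likelihood tests, TMM, all groups of the line together). With filterByExpr at a count of 10, 16735 genes stayed in SKOV3, where the fit had 6 residual degrees of freedom, and 18359 in OVCAR3, where it had 2. Benjamini-Hochberg adjustment ran over every gene tested, and a call needs an adjusted p under 0.05. A standard error is the size of the log2 fold change divided by the square root of F. Levels per kilobase divide CPM by the deposited length. The fits were tested on simulated data.

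The members and lists were chosen with earlier results of these data known. One nuclear member is counted with the others and its values are not reported here. Values per library are given for mitochondrial members, the nuclear core and, in each comparison, the 3 nuclear members with the largest rises and the 3 with the largest falls past the threshold. From other lists up to 2 risen and 2 fallen genes with the smallest adjusted p are named, with further genes of the lists chosen after their values were seen. Alternatives were other scalings and count filters, scaling from nuclear genes, DESeq2 1.42.0, limma-voom (limma 3.58.1), a replicate block and each library left out. Added after seeing the data were principal transcript lengths, a count without members with large overlaps and a crossed block.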

Additional observations from a re-analysis of the deposited data

How the results depend on the processing

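In the comparisons of each SKOV3 construct with control, the counts of members called stayed within 1.5 times those of the main fit. That held under every scaling, filter, tool and block tried and with each library left out. Mitochondrial members called were 4 to 6 with RSF1delUAB and 4 to 5 with RSF1. Nuclear members ran from 8 to 14 higher and 8 to 12 lower with RSF1delUAB. With RSF1 they ran from 11 to 14 higher and 9 to 17 lower. For RSF1delUAB against RSF1, upper-quartile scaling left 0 mitochondrial members called in place of 1, and leaving out single libraries gave 0 to 3 mitochondrial, 0 to 15 nuclear higher and 2 to 6 nuclear lower; the cause was not tested. In OVCAR3, 3 mitochondrial members were called with no count filter in place of 1. Leaving out single libraries, where the lone library left in a group is assumed to vary like the other group, gave 0 to 1 mitochondrial and 0 to 3 nuclear lower calls, with fewer samples in the fit.

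Same-numbered libraries did not deviate together (correlation -0.06 to 0.09 in SKOV3, -0.22 in OVCAR3). With the number as a replicate block OVCAR3 had 0 mitochondrial and 1 nuclear member lower, and with the numbers crossed, an alternative chosen after seeing the data, 6 and 8; the block moved no SKOV3 count by over 1.5 times.

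Directions turned only for values near 0. Under upper-quartile scaling MT-ND1 with RSF1 against control was 0.05 and MT-ND3 in RSF1delUAB against RSF1 -0.0188. With single libraries left out, MT-ND6 ranged from -0.0009 to 0.0810 for RSF1delUAB and from -0.0065 to 0.1721 for RSF1 against control, and MT-ND1 for RSF1 against control from -0.0552 to 0.0304. In RSF1delUAB against RSF1 the ranges were -0.0424 to 0.0556 for MT-ND2, -0.1380 to 0.2201 for MT-ND3, -0.1312 to 0.1038 for MT-ND5 and -0.1451 to 0.0285 for MT-ND6. In OVCAR3 they were -0.0628 to 0.1945 for MT-ND6 and -0.1123 to 0.3107 for RSF1 itself.

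OVCAR3 had 2 libraries a group and few calls, and members with under 100 reads, NDUFV2, NDUFA7 and NDUFA13, carry wide errors. Intervals on single counts would cover counting error only.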
